A study of Mus musculus with 48 samples.

Results

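The livers of mice carrying a mutant β-catenin and no other engineered allele were compared with wild-type livers 10 days after recombination, in ribosome-protected fragments (RPFs, the stretches of mRNA shielded by ribosomes) and in the cytoplasmic RNA of the same lysates. The members are the libraries titled for mutant β-catenin (B, 3 mice, genotype Ctnnb1ex3/+) and for wild type (WT, 3 mice, genotype Wild-type) at day 10, 12 of the 48 libraries of the series and 6 of its 24 mice. All animals, WT included, were by their labels males aged 2 to 4 months that had received AAV8.TBG.Cre by tail vein, a virus in which the hepatocyte-specific TBG promoter drives Cre, so that recombination was limited to hepatocytes while the whole liver was sampled. In B, Cre removes exon 3 from 1 copy of Ctnnb1, which takes away the residues that mark β-catenin for destruction. Each library came from a separate mouse, and the 2 libraries of a mouse came from the same lysate. The RPF libraries held 9942043 to 13261948 counts in coding sequences and the RNA libraries 4645204 to 5408053 estimated gene counts. All levels below are CPM, read counts scaled to a common library size with TMM factors, changes are log2 B over WT ± SE, and a gene was called at an adjusted p under 0.1 by edgeR's quasi-likelihood test.

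Wnt ligands made around the central vein stabilise β-catenin in the neighbouring hepatocytes, where with TCF/LEF factors it switches on a pericentral programme that includes glutamine synthetase, and the hepatocytes around the portal vein run urea synthesis, gluconeogenesis and histidine and serine breakdown. Axin2, Lgr5, Rnf43, Znrf3 and Notum are themselves targets that feed back on the pathway. A stabilised β-catenin is therefore a classic tool for moving hepatocytes along this axis.

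The targeted gene was level at the resolution of a gene count. The RPF level of Ctnnb1 was 367, 366 and 339 CPM in the WT mice and 352, 364 and 366 CPM in the B mice, a change of 0.01 ± 0.10, and its RNA changed by -0.04 ± 0.13. Counts summed over a whole coding sequence or gene do not show the loss of 1 exon from 1 allele, so they do not check the genotype directly. The target genes of the pathway, described next, separated every B mouse from every WT mouse at Axin2, Lgr5 and Glul.

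Across the transcriptome, 1498 genes rose (13.1% of 11454 tested) and 1387 fell (12.1%) in RPFs. In RNA 920 genes rose (8.14% of 11296 tested) and 845 fell (7.48%). The larger changes were mostly increases, since 592 genes rose and 306 fell by at least 2-fold in RPFs, and 209 rose and 65 fell by at least 4-fold. The equal split of calls depended on the scaling, because with library totals alone 86.9% of RPF calls were higher rather than 51.9%, the median of all genes lying at 0.27 in place of 0.01, and in RNA 83.9% were higher with a median of 0.24. Without B mouse 2 there were 947 higher and 801 lower in RPFs and 579 and 501 in RNA, without WT mouse 3 there were 838 and 809 in RPFs and 471 and 488 in RNA, and without WT mouse 1 there were 578 and 537 in RNA. All changes are given relative to the middle of all genes. In RPFs the groups of mice did not overlap in 4206 of the 11454 genes tested and in 2757 of the 2885 called. Many genes named below were picked for having groups apart, so for them that feature was fixed by the choice. In these bulk samples fewer cells of a type and less RNA per cell cannot be told apart.

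Genes called in both levels nearly always had the same direction. Of the 10632 genes tested in both, 696 were higher in both (6.55%) and 638 lower in both (6.0%), and over these 1334 genes the median absolute change was 0.89 in RPFs and 0.88 in RNA. A further 686 genes were higher and 679 lower in RPFs with no RNA call, and 195 were higher and 185 lower in RNA alone. Only 3 genes were called in opposite directions, all of them lower in RPFs and higher in RNA. These were Atxn2, an RNA-binding protein, Eif1, the factor that guards start codon choice, and Ywhab, a 14-3-3 protein.

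The Wnt feedback and β-catenin target genes rose. Of the 20 genes listed, 16 had enough RPF counts to test, and 13 were higher and 0 lower, with a median change of 1.49 against 0.01 over all genes tested. In RNA 13 of 17 were higher and 0 lower, with a median of 1.34. Myc and Kremen1 did not pass, with RPF changes of 0.84 ± 0.47 and -0.40 ± 0.24.

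Axin2, a scaffold of the complex that degrades β-catenin, had RPF levels of 2.31, 1.78 and 1.87 CPM in WT and 19.7, 25.0 and 18.2 CPM in B, 10.4-fold higher (3.38 ± 0.20, edgeR adjusted p = 3.9e-05). The receptor for R-spondins, Lgr5, lay at 22.4, 13.0 and 18.9 CPM in WT and at 60.8, 57.1 and 69.7 CPM in B (1.79 ± 0.18, edgeR adjusted p = 0.000445). Notum, a secreted enzyme that inactivates Wnt ligands, lay at 32.5, 22.2 and 27.5 CPM in WT and at 68.8, 54.8 and 55.7 CPM in B (1.12 ± 0.16, edgeR adjusted p = 0.00211). For all of them the groups of mice were apart, and the RNA log2 changes were 3.04, 1.9 and 1.34 in the same order.

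The ubiquitin ligases that remove Wnt receptors differed in how uniform they were. Znrf3 rose from 3.51, 1.59 and 3.05 CPM to 7.70, 5.84 and 7.84 CPM in RPFs (1.38 ± 0.28). Rnf43 rose to 2.12, 7.81 and 3.65 CPM from 1.71, 1.09 and 2.58 CPM (1.35 ± 0.50, edgeR adjusted p = 0.094), with overlapping groups and mouse 2 as the highest B animal. Tbx3, a transcription factor and direct target, was also highest in B mouse 2, at 15.7, 37.7 and 23.8 CPM against 13.3, 3.57 and 12.1 CPM in WT (1.41 ± 0.43, edgeR adjusted p = 0.0534). Its groups did not overlap.

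Sp5, a transcription factor that is a direct Wnt target, was almost unread by ribosomes in WT (0.428, 0.0991 and 0.469 CPM) and present in B (3.32, 5.21 and 2.37 CPM; 3.42 ± 0.50). Tnfrsf19, a receptor of the TNF family, rose from 2.05, 2.08 and 1.99 CPM to 9.32, 7.53 and 11.2 CPM (2.19 ± 0.22), and Lect2, a secreted hepatocyte protein, from 92.6, 61.3 and 89.5 CPM to 411, 321 and 297 CPM (2.08 ± 0.19). In each of these genes the lowest B mouse was above the highest WT mouse. These are the 3 list members whose promoter holds the TCF/LEF core CTTTGAT on either strand, so their stretches are shown. RefSeq promoter windows of 250 bases before to 50 bases after the start were searched (build GRCm38.p6), and the core was in 3 of the 11 list members with a window (27.3%) and in 1160 of all 27025 genes with a window (4.29%). The core is in capitals, in the orientation of the gene, so that ATCAAAG marks a match on the other strand. Sp5 is on the plus strand, and Tnfrsf19 and Lect2 are on the minus strand.
Sp5, chr2:70474799-70474845: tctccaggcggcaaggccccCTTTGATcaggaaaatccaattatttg
Tnfrsf19, chr14:61038163-61038209: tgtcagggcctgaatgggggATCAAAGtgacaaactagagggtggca
Lect2, chr13:56548544-56548590: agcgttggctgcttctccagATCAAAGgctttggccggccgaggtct
The match lies 104 bases before the start in Sp5, 202 in Tnfrsf19 and 32 in Lect2. A match describes the letters and is not evidence of binding.

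Pericentral genes as a group rose and periportal genes fell. Of 30 pericentral genes tested, 20 were higher and 2 lower in RPFs (median 0.96), and in RNA 22 were higher and 2 lower (median 1.39). The pericentral list took 2.17, 1.57 and 2.18% of RPF counts in the WT mice and 4.83, 4.33 and 3.69% in the B mice. Of 30 periportal genes, 0 were higher and 24 lower in RPFs (median -0.97), and 0 were higher and 21 lower in RNA (median -0.94). Their share fell from 10.7, 12.1 and 11.8% to 6.47, 7.47 and 7.53% of RPF counts. Both shares separated the groups of mice without overlap.

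Genes of glutamine, glutamate and ammonium handling were among the largest pericentral increases. Glutamine synthetase, Glul, lay at 823, 495 and 830 RPF CPM in WT and at 4940, 4020 and 3250 CPM in B, 5.68-fold higher (2.51 ± 0.24, edgeR adjusted p = 0.000295), with an RNA change of 2.89 ± 0.28. Oat, the ornithine aminotransferase that makes glutamate from ornithine, lay at 540, 415 and 632 CPM in WT and at 5750, 5810 and 3180 CPM in B (3.22 ± 0.27). The glutamate transporter Slc1a2 rose from 98.5 ± 27.2 CPM (SD, n = 3) to 1490, 1480 and 1100 CPM (3.78 ± 0.23, edgeR adjusted p = 4.49e-05). B mouse 3 was the lowest of the B mice at each of these 3 genes and remained above every WT mouse.

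The ammonium transporter Rhbg lay at 10.4, 5.35 and 9.02 CPM in WT and at 165, 151 and 79.3 CPM in B, 15.9-fold higher (3.99 ± 0.32, edgeR adjusted p = 0.000157). Slc1a4, a carrier of small neutral amino acids, lay at 11.5, 12.7 and 10.9 CPM in WT and at 61.9, 69.4 and 76.6 CPM in B (2.57 ± 0.13). Lhpp, a phosphatase, lay at 25.8, 18.4 and 24.6 CPM in WT and at 180, 180 and 98.5 CPM in B (2.73 ± 0.24). These 3 genes too separated the groups. Slc25a22, a mitochondrial glutamate carrier, rose by a smaller amount, 1.09 ± 0.21.

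For Cyp1a2 and Cyp2e1 the estimated change was smaller in RPFs than in RNA. Cyp1a2, which oxidises caffeine and many drugs, lay at 1140, 621 and 1260 RPF CPM in WT and at 2550, 1960 and 1410 CPM in B (0.97 ± 0.28, edgeR adjusted p = 0.0449), while its RNA rose from 159, 121 and 224 CPM to 1180, 595 and 462 CPM (2.15 ± 0.33, edgeR adjusted p = 0.00171). Cyp2e1, the ethanol-oxidising P450, lay at 5890, 3830 and 6880 RPF CPM in WT and at 9390, 8370 and 6700 CPM in B, groups that overlapped and did not pass the test (0.56 ± 0.22, edgeR adjusted p = 0.119). In RNA it rose from 3960, 2260 and 4070 CPM to 10500, 7560 and 5830 CPM (1.22 ± 0.28, edgeR adjusted p = 0.0175). The test of the difference between the 2 levels is given with translational efficiency below.

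The pericentral list also had 2 members that fell. Csad, which makes hypotaurine on the route to taurine, fell from 977, 660 and 708 RPF CPM to 174, 72.6 and 251 CPM (-2.24 ± 0.38, edgeR adjusted p = 0.00483). Cyp2c29, a drug-metabolising P450 with close paralogues that may share reads, fell from 1580, 1320 and 1980 CPM to 785, 606 and 759 CPM (-1.18 ± 0.18, edgeR adjusted p = 0.00269). The groups did not overlap in either gene.

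**Figure D1:**
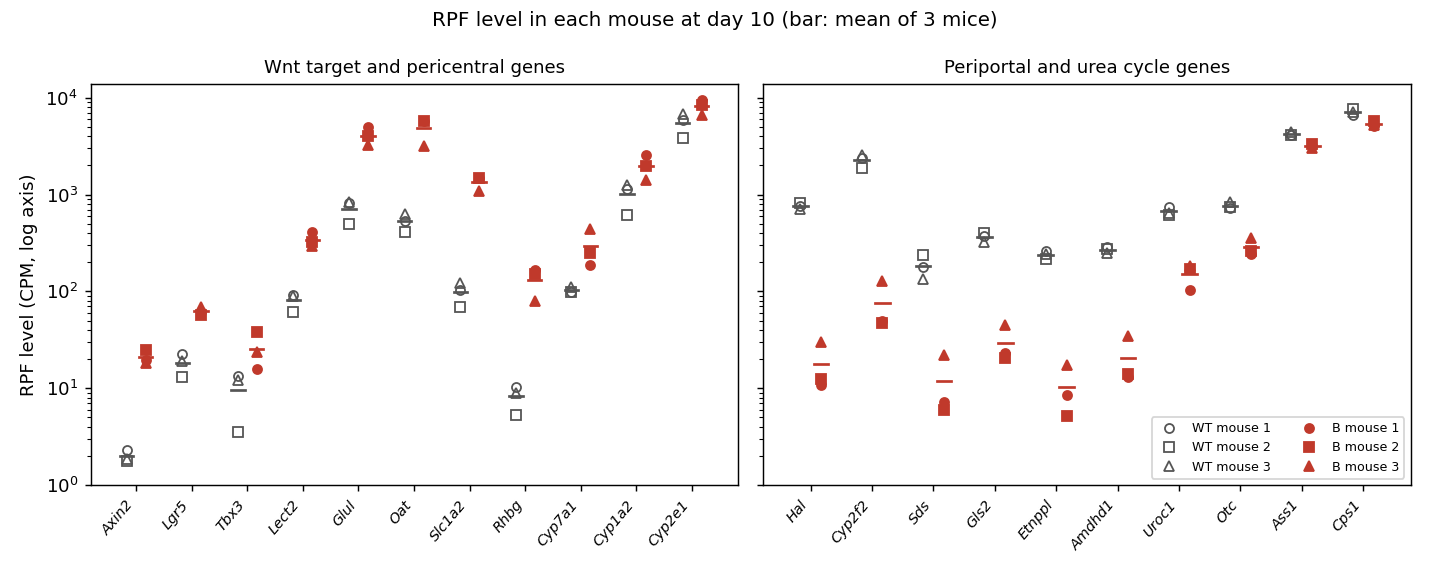
RPF level in CPM (log axis) of zonated genes in each mouse at day 10, WT in open grey and B in filled red symbols, a symbol shape per mouse number and a bar at the mean of 3 mice. Glul rises from 495 to 830 CPM in WT to 3250 to 4940 CPM in B, Hal falls from 709 to 818 CPM to 10.8 to 30.3 CPM, and Cyp2e1 alone among the genes shown has overlapping groups.

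Enzymes of histidine and serine breakdown and glutaminase had low RPF levels in every B mouse. Histidine ammonia-lyase, Hal, lay at 769, 818 and 709 RPF CPM in WT and at 10.8, 12.5 and 30.3 CPM in B, 42.7-fold lower (-5.42 ± 0.38, edgeR adjusted p = 8.68e-05). Cyp2f2, a P450 used as a periportal marker, fell from 2410, 1900 and 2580 CPM to 49.9, 46.9 and 129 CPM, 30.5-fold (-4.93 ± 0.41). The liver glutaminase Gls2, which releases ammonium for the urea cycle, fell from 370, 404 and 327 CPM to 22.9, 20.4 and 44.5 CPM (-3.65 ± 0.28, edgeR adjusted p = 0.000132). RNA fell alongside, with log2 changes of -5.55 for Hal, -5.26 for Cyp2f2 and -3.42 for Gls2.

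The serine dehydratase Sds fell from 178, 235 and 134 RPF CPM to 7.20, 5.98 and 22.1 CPM (-3.95 ± 0.46). Etnppl, which breaks down phosphoethanolamine, fell from 259, 217 and 242 CPM to 8.61, 5.14 and 17.3 CPM (-4.53 ± 0.37), and Aspg, an asparaginase, from 150, 126 and 110 CPM to 2.54, 3.38 and 6.22 CPM (-4.98 ± 0.28). In Hal, Cyp2f2, Gls2, Sds, Etnppl and Aspg alike B mouse 3 held the highest of the 3 B values. The next steps of histidine breakdown fell too, Uroc1 from 748, 620 and 640 CPM to 104, 170 and 183 CPM (-2.13 ± 0.21) and Amdhd1 from 286, 277 and 248 CPM to 13.1, 13.9 and 34.4 CPM (-3.72 ± 0.35).

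In the urea cycle list, 2 of 10 members were higher and 5 lower in RPFs (median -0.30), and 2 were higher and 3 lower in RNA (median -0.04); with library totals alone 4 were higher and 3 lower in RPFs. In RPFs leaving out any B mouse, or WT mouse 3, left 3 lower, and leaving out B mouse 1, B mouse 2 or any WT mouse left 1 higher. The ornithine transcarbamylase Otc fell from 723, 736 and 837 CPM to 246, 259 and 358 CPM (-1.41 ± 0.16). The argininosuccinate lyase Asl fell by 1.01 ± 0.14.

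Cps1 and Ass1 had smaller changes. Cps1, which fixes ammonium and is among the most heavily translated liver mRNAs, lay at 6680, 7630 and 7140 RPF CPM in WT and at 5150, 5810 and 5240 CPM in B (-0.41 ± 0.13, edgeR adjusted p = 0.0636). The argininosuccinate synthetase Ass1 lay at 4140, 4140 and 4470 CPM in WT and at 3150, 3370 and 3030 CPM in B (-0.42 ± 0.12, edgeR adjusted p = 0.0462), and its RNA changed by -0.01 ± 0.18. The ornithine carrier Slc25a15 was higher, 335, 295 and 241 CPM against 216, 189 and 231 CPM in WT (0.45 ± 0.14, edgeR adjusted p = 0.0594).

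In the list of glutamine, glutamate and ammonium handling 8 of 19 tested members rose and 3 fell in RPFs (median 0.00). The list took 0.641, 0.562 and 0.580% of RPF counts in WT and 1.83, 1.69 and 1.29% in B. In amino acid catabolism 9 of 40 rose and 16 fell (median -0.24, or 14 higher and 11 lower with library totals alone, where the median turned to 0.03), and leaving out B mouse 1, B mouse 2 or WT mouse 2 left 5 higher. Those that rose included Prodh, the first step of proline breakdown (1.70 ± 0.21), Acmsd, a branch-point enzyme of tryptophan breakdown (1.3 ± 0.26) and Mat1a, which makes S-adenosylmethionine (0.87 ± 0.18).

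Bile acid synthesis and transport had 4 of 29 members higher and 13 lower in RPFs (median -0.33, or 8 higher and 8 lower with library totals alone), and leaving out B mouse 1, B mouse 2 or WT mouse 1 left 2 higher. Of all genes tested in RPFs 13.1% were higher and 12.1% lower. Cyp7a1, the rate-limiting enzyme of bile acid synthesis, rose from 97.5, 98.9 and 112 CPM to 187, 251 and 438 CPM (1.51 ± 0.27, edgeR adjusted p = 0.00603). Cyp8b1, the sterol 12-hydroxylase that directs synthesis to cholic acid, fell from 706, 397 and 806 CPM to 43.1, 32.1 and 49.9 CPM (-3.93 ± 0.28, edgeR adjusted p = 9.24e-05). The basolateral export pump Abcc3 fell from 564, 270 and 444 CPM to 70.3, 78.5 and 79.5 CPM (-2.48 ± 0.24), and the bile acid importer Slc10a1 fell by 1.13 ± 0.20. All 4 genes separated the groups.

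Most genes of cholesterol synthesis rose. Of 24 genes tested, 16 were higher and 1 lower in RPFs (median 0.45, the lower call being lost without B mouse 1, B mouse 2, WT mouse 2 or WT mouse 3), and 15 were higher and 0 lower in RNA (median 0.61). The list took 0.588, 0.569 and 0.523% of RPF counts in WT and 1.00, 1.12 and 1.04% in B. The mevalonate kinase Mvk rose from 23.9, 21.9 and 26.1 CPM to 69.1, 72.6 and 51.2 CPM (2.69-fold), and Hmgcs1 from 988, 1020 and 1010 CPM to 2090, 2440 and 1910 CPM (1.09 ± 0.13).

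In fatty acid synthesis and glycolysis more genes fell than rose in RPFs, where 13.1% of all genes were higher and 12.1% lower. In the fatty acid and triglyceride synthesis list 3 of 22 were higher and 10 lower in RPFs (median -0.37), or 6 higher and 10 lower with library totals alone (median -0.11). The stearoyl-CoA desaturase Scd1 fell from 3860, 3680 and 4390 CPM to 1350, 1940 and 2550 CPM (-1.03 ± 0.22), and malic enzyme, Me1, from 948, 552 and 825 CPM to 379, 278 and 351 CPM (-1.21 ± 0.21). Gluconeogenesis and glycolysis had 3 of 24 members higher and 11 lower (median -0.41, or 7 lower with library totals alone), the 3 becoming 1 without B mouse 2, B mouse 3, WT mouse 1 or WT mouse 3, with the liver pyruvate kinase Pklr at 558, 260 and 409 CPM in WT and at 134, 134 and 108 CPM in B (-1.71 ± 0.25).

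Of the genes of these lists that rose, Pdk4, which blocks pyruvate entry to the citric acid cycle, went from 13.4, 12.8 and 8.32 CPM to 63.0, 48.4 and 44.5 CPM (2.16 ± 0.20). Fatty acid oxidation and ketogenesis had 3 of 29 higher and 9 lower in RPFs (median -0.17), a count that was 4 lower without B mouse 2, WT mouse 1 or WT mouse 3 and 1 higher without WT mouse 2 or WT mouse 3. With library totals alone 5 were higher and 2 lower, and the median was 0.09. The shares of all genes in the main RPF fit were 13.1% higher and 12.1% lower. Cyp4a10, a fatty acid omega-hydroxylase, rose from 96.1, 32.9 and 45.8 CPM to 193, 242 and 318 CPM (2.10 ± 0.36).

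Cytochromes P450 of families 1 to 4 had 5 of 52 members higher and 23 lower in RPFs (median -0.43), and 10 of 55 higher and 18 lower in RNA (median -0.26). With library totals alone 10 were higher and 19 lower in RPFs (median -0.17). The 5 higher in RPFs became 3 without B mouse 1 or WT mouse 2, and the 10 higher in RNA became 6 without WT mouse 2. Cyp3a11, the main drug-oxidising P450 of family 3, fell from 5620, 3810 and 5250 CPM to 1410, 1680 and 1450 CPM (-1.70 ± 0.17, edgeR adjusted p = 0.000436). Por, the reductase that supplies electrons to these enzymes, rose from 244, 202 and 214 CPM to 478, 445 and 487 CPM (1.10 ± 0.12).

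Among the conjugating enzymes 10 of 47 were higher and 14 lower in RPFs, and here the RNA median (0.10) and the RPF median (-0.21) differed in sign, the latter becoming 0.05 with library totals alone and 0.02 without WT mouse 1, and the former -0.03 without B mouse 1 or WT mouse 2. Without WT mouse 1, 9 were lower. Gstm2, a glutathione transferase, rose from 100, 79.2 and 99.8 CPM to 422, 378 and 302 CPM (1.98 ± 0.16). Gstp1 and Gstp2, a near-identical pair whose reads cannot be assigned with certainty, fell in RPFs by 1.14 ± 0.14 and 1.09 ± 0.13, with RNA changes of -0.08 ± 0.25 and -0.07 ± 0.24.

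Among 21 nuclear receptors and partners that control these programmes, 3 were higher and 4 lower in RPFs, where 13.1 and 12.1% of all genes were, or 8 higher and 0 lower with library totals alone, and 2 were lower without any 1 WT mouse. Ahr, the dioxin receptor, rose from 45.3, 47.2 and 47.1 CPM to 135 ± 12.6 CPM (SD, n = 3, groups apart; 1.53 ± 0.11, edgeR adjusted p = 8.68e-05). Of 20 hepatocyte transcription factors 1 was higher and 6 lower, the latter 2 to 3 without WT mouse 1, WT mouse 3 or B mouse 2, and with library totals alone 4 were higher and 2 lower. Cebpa fell from 141, 97.6 and 119 CPM to 65.5, 56.4 and 53.1 CPM (-1.04 ± 0.15), and Foxa1 from 18.0, 11.4 and 18.5 CPM to 5.51, 7.95 and 6.96 CPM (-1.23 ± 0.22).

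Of the 30 genes with the highest mean RPF level, 0 were higher and 21 lower in RPFs, or 2 higher and 15 lower with library totals alone, and in RNA 2 were higher and 14 lower. Together they took 26.9, 29.7 and 30.8% of RPF counts in WT and 21.4, 22.9 and 22.6% in B, and 24, 26.2 and 24% of RNA counts in WT and 17.4, 16.5 and 17% in B. Albumin, Alb, lay at 45800, 49800 and 60900 RPF CPM in WT and at 20600, 22800 and 23900 CPM in B (-1.22 ± 0.17, edgeR adjusted p = 0.00219), and at 66100, 66300 and 67200 CPM in WT RNA and 21500, 19800 and 19600 CPM in B RNA (-1.71 ± 0.25, edgeR adjusted p = 0.00149). Both levels separated the groups.

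In RPFs several other plasma proteins fell, as did most of the male-biased genes. Serpina1e, a protease inhibitor of a family of close copies, fell from 13200, 17300 and 17400 CPM to 6010, 5720 and 6330 CPM (-1.41 ± 0.16), transferrin, Trf, by 0.67 ± 0.16, the vitamin D carrier Gc by 0.70 ± 0.14 and the fibrinogen chain Fga by 0.93 ± 0.18. Of 19 male-biased liver genes 2 were higher and 13 lower in RPFs (median -0.77), with 0 higher without B mouse 1, B mouse 2 or WT mouse 1 and 1 without B mouse 3 or WT mouse 2. In RNA 3 of 20 were higher and 9 lower (median -0.55). Serpina12, an adipokine also made by liver, fell in RPFs from 147, 52.7 and 161 CPM to 22.0, 11.5 and 2.5 CPM (-3.32 ± 0.64). Of 15 major urinary protein genes 0 were higher and 6 lower in RPFs, the latter 2 without WT mouse 3 and 3 without B mouse 2, and Mup3 fell from 6760, 6600 and 9840 CPM to 2700, 2460 and 2550 CPM (-1.59 ± 0.18), with the reservation that the genes of this cluster share sequence.

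Of the female-biased genes 4 of 8 were higher and 1 lower in RPFs (median 1.00), and 3 of 9 were higher and 4 lower in RNA (median -0.11), where 5 were higher without B mouse 3 or WT mouse 1. The RNA median lay at -0.50 without B mouse 2, at 0.28 to 1.08 without each of the other mice, and at 0.10 with library totals alone. The share of RPF counts of this list was 0.183, 0.120 and 0.143% in WT and 0.0565, 0.0684 and 0.0687% in B, lower in every B mouse than in every WT mouse. Among genes of iron homeostasis 0 of 19 were higher and 6 lower in RPFs (median -0.39). Hamp, the hormone hepcidin, fell from 412, 236 and 353 CPM to 192, 161 and 90.2 CPM (-1.18 ± 0.28, edgeR adjusted p = 0.0205), and the iron exporter Slc40a1 from 178, 143 and 148 CPM to 52.7, 40.2 and 94.4 CPM (-1.33 ± 0.27), the latter also a Kupffer cell marker. The transferrin receptor Tfr2 fell by 0.77 ± 0.12.

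**Figure D2:**
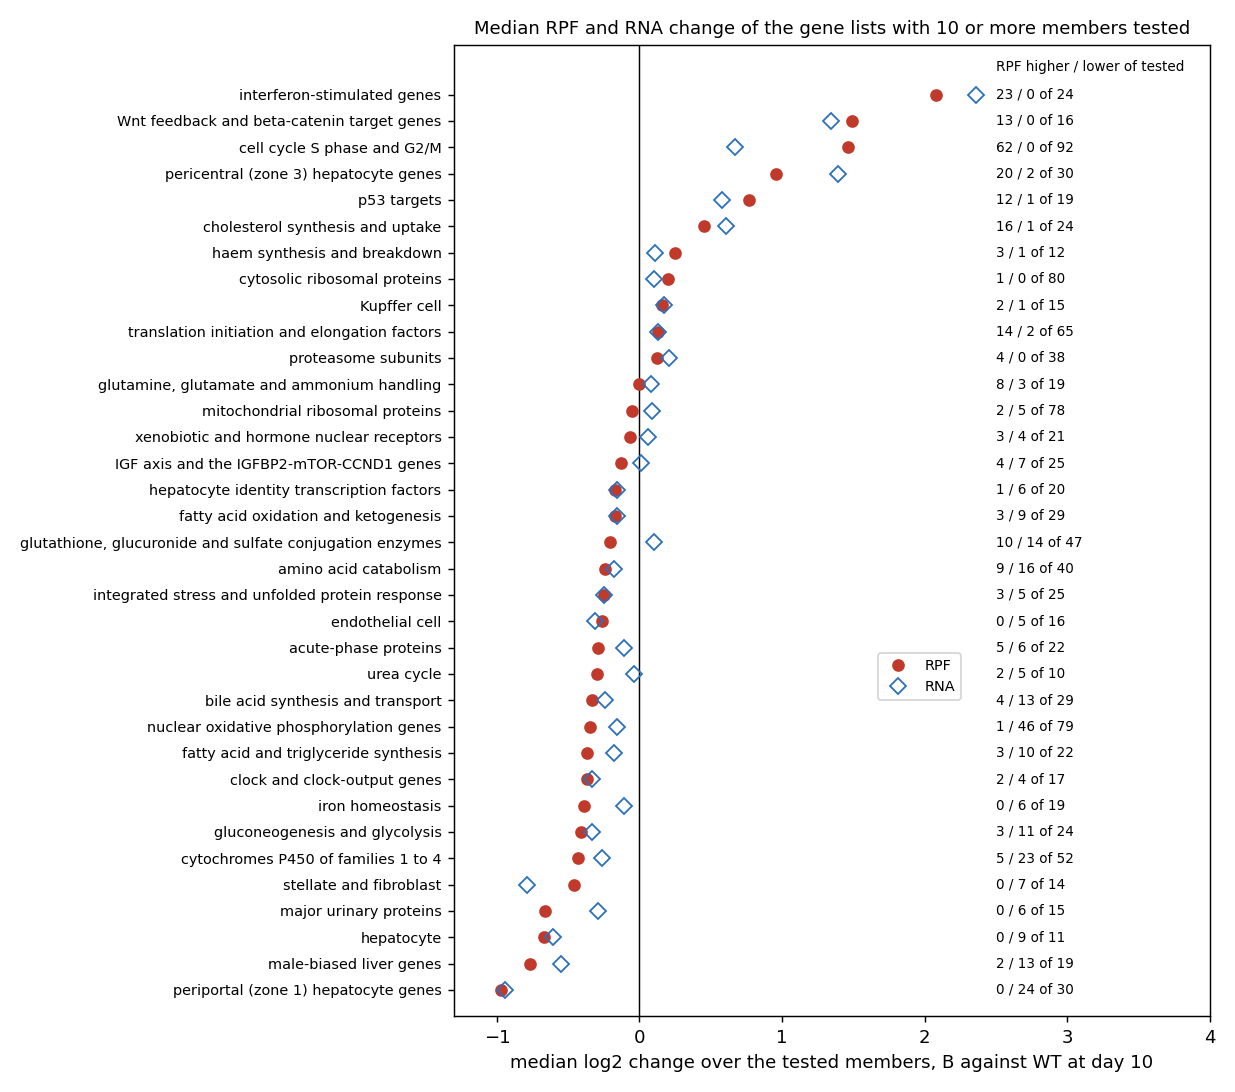
Median log2 change, B against WT at day 10, of each gene list with 10 or more members tested in RPFs (red, RPF; blue, RNA), with the counts of members higher and lower in RPFs at the right. Interferon-stimulated, Wnt target, cell cycle and pericentral genes lie at the top (medians 2.08, 1.49, 1.46 and 0.96 in RPFs) and periportal genes at the bottom (-0.97).

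The interferon-stimulated genes rose almost without exception. Of 24 tested, 23 were higher and 0 lower in RPFs (median 2.08), and 22 of 23 were higher and 0 lower in RNA (median 2.36). The list took 0.0797, 0.0964 and 0.0683% of RPF counts in WT and 0.290, 0.351 and 0.162% in B, so that mouse 3 was the weakest of the B mice while above all WT mice. Usp18, which removes ISG15 from proteins and limits the response, rose from 18.0, 21.4 and 16.4 CPM to 222, 198 and 77.3 CPM (3.15 ± 0.36, edgeR adjusted p = 0.000713). Ifit1, a sensor of foreign RNA caps, rose from 26.9, 30.4 and 14.9 CPM to 197, 277 and 61.1 CPM (2.88 ± 0.49), and Rsad2, the antiviral enzyme viperin, from 20.5, 26.2 and 16.2 CPM to 156, 170 and 50.2 CPM (2.58 ± 0.41).

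Ifi44 rose from 4.79, 10.7 and 7.61 CPM to 46.7, 76.1 and 22.0 CPM (2.66 ± 0.44), Isg15, the ubiquitin-like modifier, from 34.6, 40.2 and 24.1 CPM to 216, 290 and 81.3 CPM (2.57 ± 0.41), and the chemokine Cxcl10 from 1.45, 3.67 and 1.76 CPM to 16.9, 12.1 and 7.44 CPM (2.40 ± 0.39). No gene of these 6 had overlapping groups. The single list member not called was Irf7, an interferon regulatory factor. Its RPF level was 8.72, 10.2 and 7.85 CPM in WT and 11.6, 10.3 and 14.6 CPM in B (0.45 ± 0.18, edgeR adjusted p = 0.113), while its RNA rose from 27.5, 20.5 and 18.7 CPM to 108, 115 and 29.8 CPM (1.91 ± 0.40, edgeR adjusted p = 0.00953). The interferon-linked translation inhibitor Eif2ak2 (0.95 ± 0.17) and the immunoproteasome subunits Psmb9 (1.04 ± 0.20) and Psmb8 (0.66 ± 0.17) rose as well.

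A copy of the interferon-stimulated response element, that is GAAA followed by any 2 bases and a second GAAA, or TTTC, any 2 bases and TTTC on the other strand, was present in the promoter windows of 13 of the 20 list members that have one (65.0%) and of 1079 of all 27025 genes that have one (3.99%). Of Usp18, Ifit1, Ifi44 and Rsad2, a copy before the start was found only for Ifit1 and Rsad2, so their stretches are shown. They are in the orientation of the gene with the element in capitals, Ifit1 on the plus strand and Rsad2 on the minus strand.
Ifit1, chr19:34640765-34640814: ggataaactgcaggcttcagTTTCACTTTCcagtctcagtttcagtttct
Ifit1, chr19:34640784-34640833: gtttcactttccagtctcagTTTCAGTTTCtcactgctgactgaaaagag
Rsad2, chr12:26456543-26456592: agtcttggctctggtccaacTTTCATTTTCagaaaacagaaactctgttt
The elements lie 104 and 85 bases before the start of Ifit1, in stretches that overlap each other, and 120 bases before that of Rsad2. As above, the match is a description of the letters.

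The acute-phase genes split. Of 22 tested, 5 were higher and 6 lower in RPFs (median -0.29), and the 5 became 3 without WT mouse 3. The serum amyloid genes Saa1 and Saa2, which are near copies, rose from 18.5, 86.8 and 44.3 CPM to 107, 1090 and 294 CPM (3.32 ± 0.82, edgeR adjusted p = 0.0233) and from 14.3, 54.0 and 27.1 CPM to 76.7, 1070 and 195 CPM (3.82 ± 0.91, edgeR adjusted p = 0.0202). Lcn2, an iron-sequestering protein, rose from 4.11, 9.31 and 4.92 CPM to 33.2, 389 and 138 CPM (4.93 ± 0.82), and Orm2, an orosomucoid, from 9.32, 12.3 and 14.5 CPM to 73.0, 915 and 245 CPM (5.1 ± 0.83). In each of these 4 genes B mouse 2 was the highest and B mouse 1 the lowest of the B mice.

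Markers of other liver cells were examined beside these changes. Of all genes tested in RPFs 13.1% were higher and 12.1% lower, and of the markers Mpeg1 and Dcn were named after their values were seen. Of 15 Kupffer cell markers 2 were higher and 1 lower in RPFs (median 0.16, or 7 higher and 1 lower with library totals alone, median 0.42, and 3 lower without B mouse 3, with 1 higher without B mouse 2, B mouse 3, WT mouse 1 or WT mouse 3), with summed levels of 981 to 1270 CPM in WT and 1060 to 1530 CPM in B, and Mpeg1, a macrophage perforin that interferon also induces, rose from 85.5, 157 and 116 CPM to 219, 432 and 280 CPM (1.38 ± 0.27). Of 5 neutrophil markers 2 were higher and 0 lower (4 higher with library totals alone or without B mouse 1 or WT mouse 2, and 1 without B mouse 2, WT mouse 1 or WT mouse 3), with summed levels of 7.87 to 16.8 CPM in WT and 15.6 to 44.3 CPM in B. Of 5 lymphocyte markers 0 passed (2 higher without WT mouse 2, and 1 without B mouse 1 or with library totals alone), at 27.7 to 44.8 CPM and 38.6 to 57.9 CPM. Stellate cell and fibroblast markers had 0 of 14 higher and 7 lower (median -0.46, summed 1260 to 1480 CPM in WT and 701 to 1060 CPM in B), or 4 lower with library totals alone or without B mouse 2, the collagen-binding proteoglycan Dcn falling by 0.69 ± 0.14.

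Endothelial markers had 0 of 16 higher and 5 lower (median -0.26, or 0 lower with library totals alone, and 2 lower without B mouse 1, B mouse 2 or WT mouse 3), and of 7 cholangiocyte markers 1 was lower. Of 11 hepatocyte markers 0 were higher and 9 lower (median -0.67), their summed RPF level being 130000 to 160000 CPM in WT and 80700 to 87800 CPM in B. Haemoglobin and other red cell markers summed to 868 to 1100 CPM in WT and 1220 to 1850 CPM in B, with 3 of 5 higher and 1 lower. In RPFs no marker present in the tables was at 0 in all 6 mice, while in RNA 1 neutrophil marker was, and the part of cell composition in the gene changes was not tested.

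**Figure D3:**
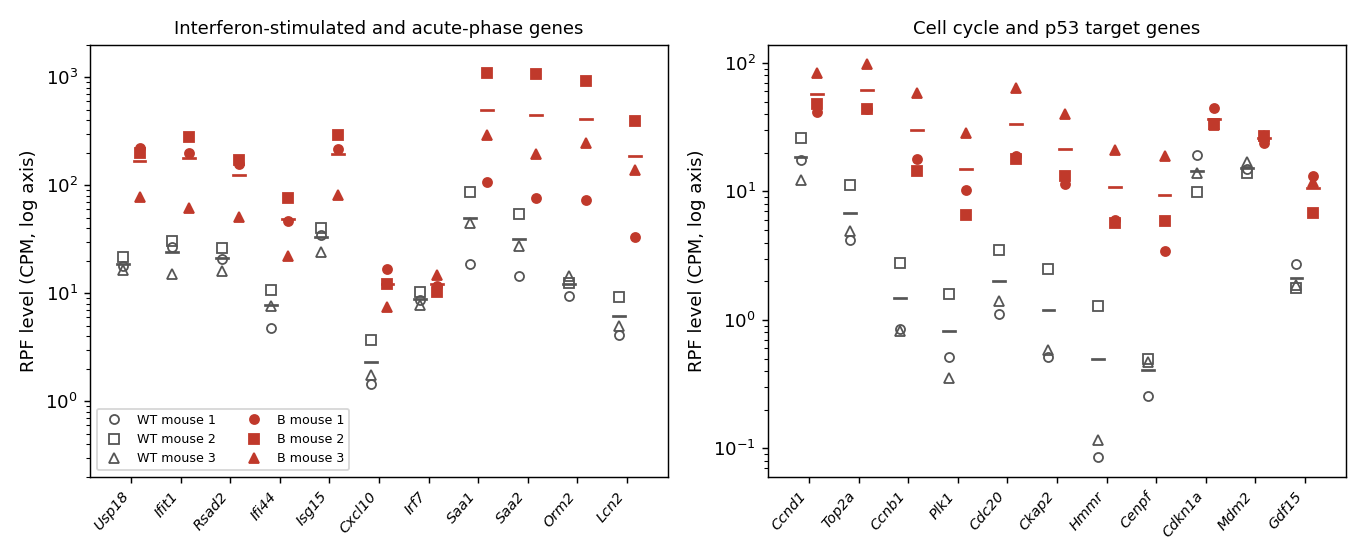
RPF level in CPM (log axis) in each mouse at day 10 of interferon-stimulated and acute-phase genes (left) and of cell cycle and p53 target genes (right), WT in open grey and B in filled red symbols, a shape per mouse number and a bar at the mean of 3 mice. B mouse 3 (triangles) is lowest of the B mice for Usp18 (77.3 CPM) and highest for Top2a (97.7 CPM), and B mouse 2 (squares) is highest for Saa1 (1090 CPM).

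Genes of S phase and of G2 and mitosis rose in RPFs and, by less, in RNA. Of 92 tested in RPFs, 62 were higher and 0 lower (median 1.46), and of 87 tested in RNA, 45 were higher and 0 lower (median 0.67). The RNA count was 25 without WT mouse 1 and 26 without WT mouse 3, and the RPF count stayed between 51 and 64 whichever mouse was left out. The list took 0.107, 0.119 and 0.0952% of RPF counts in WT and 0.190, 0.186 and 0.293% in B, with B mouse 3 the highest.

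Cenpf, a kinetochore protein of mitosis, had RPF levels of 0.257, 0.495 and 0.469 CPM in WT and 3.46, 5.84 and 18.9 CPM in B (4.53 ± 0.79, edgeR adjusted p = 0.00531). Cdc20, the activator of the anaphase-promoting complex, lay at 1.11, 3.47 and 1.41 CPM in WT and at 18.9, 17.9 and 64.1 CPM in B (4.08 ± 0.62). Topoisomerase II, Top2a, lay at 4.19, 11.3 and 4.92 CPM in WT and at 43.5, 43.8 and 97.7 CPM in B (3.18 ± 0.43, edgeR adjusted p = 0.00186). The groups of mice were apart in all of them, and WT mouse 2 was the highest WT animal.

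The RNA of the same genes rose less. Top2a RNA lay at 37.7, 65.0 and 61.9 CPM in WT and at 67.4, 83.8 and 132 CPM in B (0.79 ± 0.25, edgeR adjusted p = 0.0725), Cdc20 RNA at 2.65, 4.26 and 3.15 CPM and 8.32, 6.92 and 15.0 CPM (1.58 ± 0.34), and Cenpf RNA at 3.46, 6.77 and 3.88 CPM and 16.8, 21.8 and 57.5 CPM (2.75 ± 0.46). Cyclin B1, Ccnb1, and the kinase Plk1, which are outside the list, rose in RPFs by 4.34 ± 0.67 and 4.18 ± 0.69 and in RNA by 1.23 ± 0.32 and 0.78 ± 0.23. CPM are not comparable between RPF and RNA libraries as absolute amounts, so only the changes are set side by side.

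The TTTGAA core of the cell cycle homology region, sought on both strands, was in the promoter windows of 38 of the 78 list members that have one (48.7%) and of 5466 of all 27025 genes that have one (20.2%). As this core has few letters, its presence is common. Of Cenpf, Hmmr, Ckap2, Cdc20, Ccnb1 and Plk1, a match before the start was found only for Ckap2 and Cdc20. The stretches of the cytoskeletal protein Ckap2, whose RPFs rose from 0.513, 2.48 and 0.586 CPM to 11.4, 13.2 and 40.0 CPM (4.16 ± 0.67), and of Cdc20 are shown, both on the minus strand and in the orientation of the gene, with the core in capitals.
Ckap2, chr8:22185895-22185940: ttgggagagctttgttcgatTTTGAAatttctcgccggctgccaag
Cdc20, chr4:118437344-118437381: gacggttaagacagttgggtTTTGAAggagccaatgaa
The core lies 101 bases before the start in Ckap2 and 18 in Cdc20.

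Cyclin D1, Ccnd1, the G1 cyclin often listed as a β-catenin target, rose from 17.7, 26.0 and 12.3 RPF CPM to 41.8, 47.8 and 83.1 CPM (1.62 ± 0.31, edgeR adjusted p = 0.00785), and in RNA from 49.5, 77.4 and 60.4 CPM to 77.5, 90.4 and 135 CPM (0.69 ± 0.22, edgeR adjusted p = 0.0647). The targets of p53 were also higher, 12 of 19 in RPFs with 1 lower (median 0.77) and 10 of 19 in RNA with 2 lower (median 0.58). The lower call in RPFs was lost without B mouse 1, WT mouse 1 or WT mouse 3 and with library totals alone, and of those in RNA 1 was left without WT mouse 2 and 0 without each of the other mice, with DESeq2 or with library totals alone. Cdkn1a, the cyclin-dependent kinase inhibitor p21, rose from 19.2, 9.81 and 13.9 CPM to 44.5, 33.4 and 32.9 CPM (1.36 ± 0.23), Mdm2, the ligase that destroys p53, from 15.0, 14 and 16.9 CPM to 23.9, 26.9 and 27.0 CPM (0.77 ± 0.12), and the stress hormone Gdf15 from 2.74, 1.78 and 1.87 CPM to 13.1, 6.75 and 11.9 CPM (2.29 ± 0.30). No p53 target named here had overlapping groups.

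The insulin-like growth factor axis and its link to mTOR were mixed, with 4 of 25 higher and 7 lower in RPFs (median -0.13), where 13.1 and 12.1% of all genes were. With library totals alone 10 were higher and 4 lower (median 0.14), and without WT mouse 3 the lower count was 4. Igfbp2, a binding protein of these growth factors, lay at 333, 345 and 400 CPM in WT and at 111, 95.8 and 278 CPM in B (-1.15 ± 0.35, edgeR adjusted p = 0.0516). B mouse 3 lay close to the WT mice, and the groups did not overlap. Igfbp3 fell by 1.39 ± 0.17 and the mTOR inhibitor Deptor by 0.85 ± 0.12, while the kinase Mtor itself did not pass, at 114, 95.3 and 110 CPM in WT and 95.7, 87.6 and 89.1 CPM in B (-0.23 ± 0.11, edgeR adjusted p = 0.179). E-cadherin, Cdh1, which binds β-catenin at the membrane, fell from 172, 225 and 180 CPM to 122, 110 and 143 CPM (-0.62 ± 0.14).

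Outside the lists, Ly6d, a small membrane protein, went from almost no reads to clear levels. Its RPF level was 0.684, 0.991 and 0.586 CPM in WT and 52.8, 122 and 96.3 CPM in B (6.88 ± 0.40, edgeR adjusted p = 3.9e-05), and its RNA, at 1 count in the 3 WT mice together, was 25.8, 34.8 and 29.5 CPM in B. The kinesin Kif26b rose from 0.855, 0.297 and 0.586 CPM to 11.9, 8.87 and 8.92 CPM (4.04 ± 0.31). The water channel Aqp8 fell from 248, 143 and 196 CPM to 11.2, 14.5 and 23.3 CPM (-3.58 ± 0.29). Aqp4, another water channel, had RPF levels of 10.3, 5.75 and 3.16 CPM in WT and no count in any B mouse, at least 30.7-fold lower against a floor of 3 counts per library.

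The list of the integrated stress and unfolded protein responses had 3 of 25 members higher and 5 lower in RPFs (median -0.25), beside 13.1 and 12.1% of all genes. The lower count was 2 without B mouse 2 and 9 without B mouse 3, and with library totals alone 5 were higher and 1 lower. Atf3, an early stress transcription factor, rose from 1.97, 1.68 and 0.937 CPM to 10.4, 3.80 and 15.0 CPM (2.63 ± 0.50), and Ddit4, an inhibitor of mTOR complex 1, from 9.92, 7.33 and 5.97 CPM to 15.2, 20.3 and 14.5 CPM (1.09 ± 0.21). Herpud1, which serves the degradation of misfolded proteins at the endoplasmic reticulum, fell from 252, 244 and 235 CPM to 102, 82.9 and 103 CPM (-1.35 ± 0.12). The groups were apart in all of these genes.

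The machinery of translation and energy metabolism moved by small amounts. Cytosolic ribosomal protein genes had 1 of 80 higher and 0 lower in RPFs (median 0.20), but 37 higher without B mouse 3 and 42 higher with library totals alone. Their share of RPF counts was 1.01, 0.984 and 0.806% in WT and 1.63, 1.19 and 0.988% in B, so that B mouse 3 overlapped the WT mice. Translation initiation and elongation factors had 14 of 65 higher and 2 lower (median 0.13), or 43 higher and 0 lower with library totals alone (median 0.39), and 7 to 9 higher without B mouse 1, B mouse 2, WT mouse 2 or WT mouse 3, with Eif6, which keeps ribosomal subunits apart, at 44.0, 40.6 and 41.8 CPM in WT and 76.2, 77.5 and 64.6 CPM in B (0.79 ± 0.11).

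Nuclear genes of oxidative phosphorylation had 1 of 79 higher and 46 lower in RPFs (median -0.35). The lower count fell to 16 without B mouse 2, 25 without B mouse 3 or WT mouse 1 and 15 without WT mouse 3, and to 6 with library totals alone (median -0.09). In RNA 1 of 78 was higher and 0 lower (median -0.16, or 0.05 with library totals alone, and 25 lower without B mouse 1). Cox6c, a subunit of complex IV, fell from 157, 160 and 182 RPF CPM to 111, 103 and 106 CPM (-0.64 ± 0.11), and Atp5if1, the inhibitor of the ATP synthase, was the member that rose (0.56 ± 0.10).

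Translational efficiency (TE), the RPF change less the RNA change, was tested as the interaction of genotype and library type. Without a term for the mouse, 3 genes were higher (0.0282% of 10632) and 3 lower (0.0282%). With the mouse as a block over its RPF and RNA libraries, 140 were higher (1.32%) and 136 lower (1.28%), at unadjusted p under 0.05 for 558 and 1257 genes. The blocked counts ran from 52 higher and 39 lower without WT mouse 3 to 271 higher and 369 lower without B mouse 3. Without the block there were 0 calls without WT mouse 3, and 15 higher and 5 lower without B mouse 3. DESeq2 gave 10 higher and 16 lower without the block and 86 higher and 66 lower with it.

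The genes with a higher TE in the fit without the block were Greb1, Bmp7 and Mapk6. Greb1, a hormone-responsive gene, had no RPF count in any WT mouse and 2.19, 2.46 and 1.22 CPM in B, at least 6.48-fold higher against a floor of 3 counts per library, while its RNA was 20.8, 33.5 and 35.4 CPM in WT and 25.6, 34.6 and 33.9 CPM in B (0.08 ± 0.20). Bmp7, a growth factor, rose in RPFs from 1.20, 0.396 and 1.52 CPM to 15.7, 13.1 and 9.80 CPM (3.64 ± 0.35) with RNA at 27.9, 42.2 and 43.9 CPM in WT and 51.1, 47.8 and 52.0 CPM in B (0.41 ± 0.17), a TE change of 3.23 (edgeR adjusted p = 0.00546). The kinase Mapk6 rose from 2.74, 3.07 and 2.81 CPM to 6.50, 6.61 and 6.35 CPM in RPFs, a TE change of 1.20 (edgeR adjusted p = 0.0348).

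The 3 with a lower TE were Cyp2c40, Rdh9 and Ugt2b38, each from a family of close copies in which reads may be split differently between the 2 kinds of library. Cyp2c40 fell in RPFs from 14.1, 8.13 and 12.8 CPM to 0.706, 1.69 and 1.55 CPM with RNA at 163, 105 and 135 CPM in WT and 150, 108 and 138 CPM in B, a TE change of -3.11 (edgeR adjusted p = 0.00546). Rdh9 rose in both levels, by 0.90 in RPFs and 2.94 in RNA, and Ugt2b38 fell in both, by 2.31 and 0.95.

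Under the block, cell cycle genes took part in the higher TE calls. Of 87 list members tested, 23 were higher and 0 lower in TE (median 0.37 against 0.00 over all genes), 63 had a TE change above 0, and the calls numbered 9 without WT mouse 3 and 16 to 25 without each of the other mice. Without the block 0 were called. Top2a had a blocked TE change of 2.36 ± 0.19 (edgeR adjusted p = 8.99e-09), Ect2, a guanine exchange factor of cytokinesis, one of 2.32 ± 0.27 (edgeR adjusted p = 7.29e-06) and Ccnd1 one of 0.91 ± 0.16 (edgeR adjusted p = 0.00123). Orm2 reached 2.37 ± 0.22 (edgeR adjusted p = 1.3e-07).

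Of the pericentral genes 0 of 30 had a higher and 4 a lower blocked TE (median -0.28), or 11 lower without B mouse 3 and 1 lower without WT mouse 3. Other lists also held lower calls, 7 of 46 conjugating enzymes, 6 of 78 genes of oxidative phosphorylation, 5 of 21 of fatty acid and triglyceride synthesis, 5 of 51 cytochromes P450 and 3 of 15 major urinary proteins. As each mouse was left out, these ran from 2 to 13, 0 to 19, 1 to 5, 2 to 9 and 2 to 4 in the same order. The fewest were without WT mouse 3. Without the block 1 conjugating enzyme and 1 P450 were lower, and 0 in the others. Cyp1a2 fell by 1.09 ± 0.15 (edgeR adjusted p = 8.77e-05) and Cyp2e1 by 0.64 ± 0.14 (edgeR adjusted p = 0.0105). Irf7 fell by 1.33 ± 0.38 (edgeR adjusted p = 0.0806), and Eif1 and Atxn2 by 1.10 ± 0.13 and 1.25 ± 0.17. The interferon list, in which Irf7 was the only lower call, had 0 lower with DESeq2 and without any mouse other than B mouse 3. Hsd17b6, a steroid dehydrogenase, was an opposite case, with RPFs down from 176, 163 and 178 CPM to 85.1, 88.0 and 91.9 CPM and RNA down further, from 102, 101 and 87.1 CPM to 18.0, 11.5 and 27.5 CPM, a blocked TE change of 1.41 ± 0.18 (edgeR adjusted p = 3.22e-05). Of periportal genes 0 were higher and 1 lower.

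**Figure D4:**
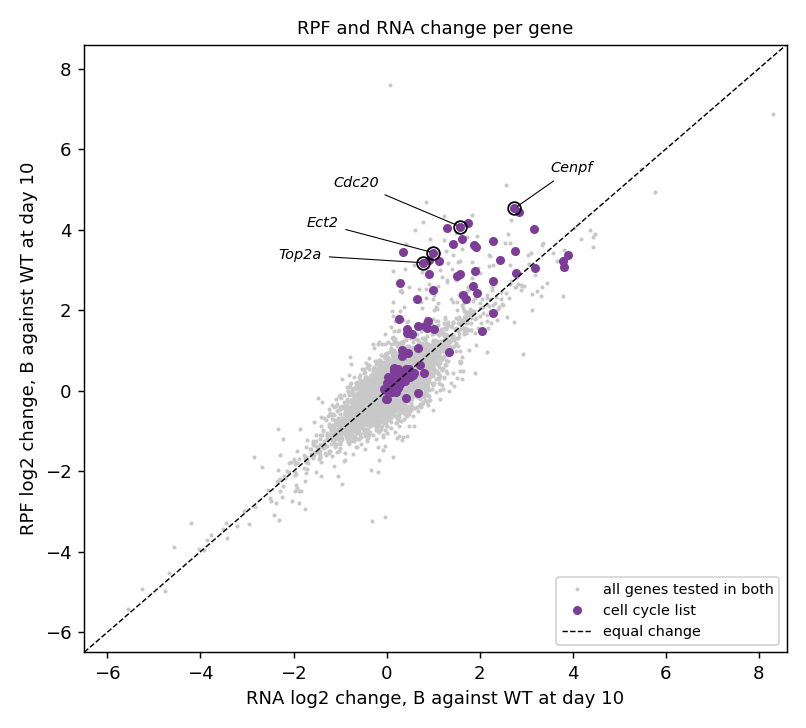
RPF log2 change (y) against RNA log2 change (x), B against WT at day 10, for each gene tested in both (grey) with the cell cycle list in purple and a dashed line of equal change. Most genes lie along the line, and many cell cycle genes lie above it, Top2a at 3.18 in RPFs and 0.79 in RNA and Cdc20 at 4.08 and 1.58.

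The same genotype was also sampled 4 days after recombination, with its own 3 WT and 3 B mice, all animals being harvested at the same time and injected on different days. The B effect at day 10 exceeded that at day 4 for 973 genes in RPFs (8.39% of 11597) and fell below it for 1024 (8.83%), and in RNA for 495 (4.3% of 11520) and 578 (5.02%). At day 4 itself 687 genes were higher in RPFs (6.21% of 11058 tested) and 692 lower (6.26%). The Wnt target list was already up at day 4 (10 of 16 higher, 0 lower, median 1.74 in RPFs), and 2 of 16 members were higher and 0 lower in the difference between days. Glul rose by 2.19 at day 4 and 2.51 at day 10, a difference of 0.32 ± 0.29 (edgeR adjusted p = 0.528), and Axin2 by 2.77 and 3.38 (edgeR adjusted p = 0.209 for the difference).

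Part of the periportal list differed between the days. At day 4, 0 of 30 were higher and 14 lower in RPFs (median -0.34), and in the difference between days 2 were higher and 15 lower. Hal changed by -0.26 at day 4 and by -5.42 at day 10 (difference -5.16 ± 0.45, edgeR adjusted p = 4.68e-05), Cyp2f2 by -0.55 and -4.93 (-4.38 ± 0.44) and Gls2 by -0.03 and -3.65 (-3.62 ± 0.37). Of the pericentral genes 28 of 30 were higher and 0 lower at day 4, and in the difference 5 were higher and 7 lower. Slc1a2 and Rhbg rose further, by 2.59 ± 0.36 and 2.35 ± 0.44 more than at day 4, while Csad, at 0.50 on day 4, had a difference of -2.74 ± 0.46.

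Interferon-stimulated genes were 0 of 24 higher and 8 lower at day 4 (median -0.54), and all 24 were higher in the difference between days (median 2.77). Usp18 lay at 15.9 ± 1.32 RPF CPM (SD, n = 3) in WT and 17.7 ± 5.68 CPM in B at day 4, and at 17.6 ± 2.36 CPM and 159 ± 75.2 CPM at day 10 on the scale of all 12 libraries. The p53 targets had 1 of 19 higher and 9 lower at day 4, and 14 higher and 0 lower in the difference. Here the WT mice of the days differed, with Cdkn1a at 73.2 ± 2.10 CPM (SD, n = 3) in WT and 25.3 ± 13.0 CPM in B at day 4 and at 13.5 ± 4.43 CPM and 35.4 ± 6.46 CPM at day 10.

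The acute-phase list showed the same feature. It had 0 of 22 higher and 20 lower at day 4 (median -1.26) and 13 higher and 1 lower in the difference. Saa1 lay at 925 ± 666 CPM (SD, n = 3) in WT and 13.0 ± 3.85 CPM in B at day 4, and at 47.1 ± 32.5 CPM and 476 ± 501 CPM at day 10. Lcn2 lay at 73.8 ± 56.9 CPM and 2.47 CPM on average at day 4, and at 5.78 ± 2.63 CPM and 179 ± 176 CPM at day 10. The WT mice of day 4 were thus well above those of day 10 at these genes, and their part in the differences between days was not tested. RPFs of some cell markers also differed between the days. Of 15 Kupffer cell markers 0 were higher and 4 lower at day 4, and 6 higher and 1 lower in the difference. Of 5 neutrophil markers 0 were higher and 3 lower at day 4, and 3 higher and 0 lower in the difference. In the difference 5 of 16 endothelial and 5 of 14 stellate cell and fibroblast markers were lower, and 0 higher. The part of cell composition in these differences was not tested.

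The cell cycle list had 22 of 71 members higher and 1 lower in RPFs at day 4 (median 0.35), and 14 of 92 higher and 2 lower in the RPF difference (median 0.72). In RNA 3 of 72 were higher and 1 lower at day 4 (median 0.05), and 10 of 87 higher and 0 lower in the difference (median 0.60). The values that follow are for RPFs. Top2a rose by 1.52 at day 4 and 3.18 at day 10, a difference of 1.67 ± 0.64 that did not pass (edgeR adjusted p = 0.113). Ccnd1 changed by -0.07 at day 4, a difference of 1.69 ± 0.41 (edgeR adjusted p = 0.0187). Cytochromes P450 had 23 of 51 higher and 7 lower at day 4 (median 0.24), and 1 of 53 higher and 26 lower in the difference, and fatty acid and triglyceride synthesis had 9 of 22 higher and 0 lower at day 4 and 0 higher and 11 lower in the difference. Cholesterol synthesis, with 16 of 24 higher and 0 lower at day 4, had 3 higher and 4 lower in the difference.

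**Figure D5:**
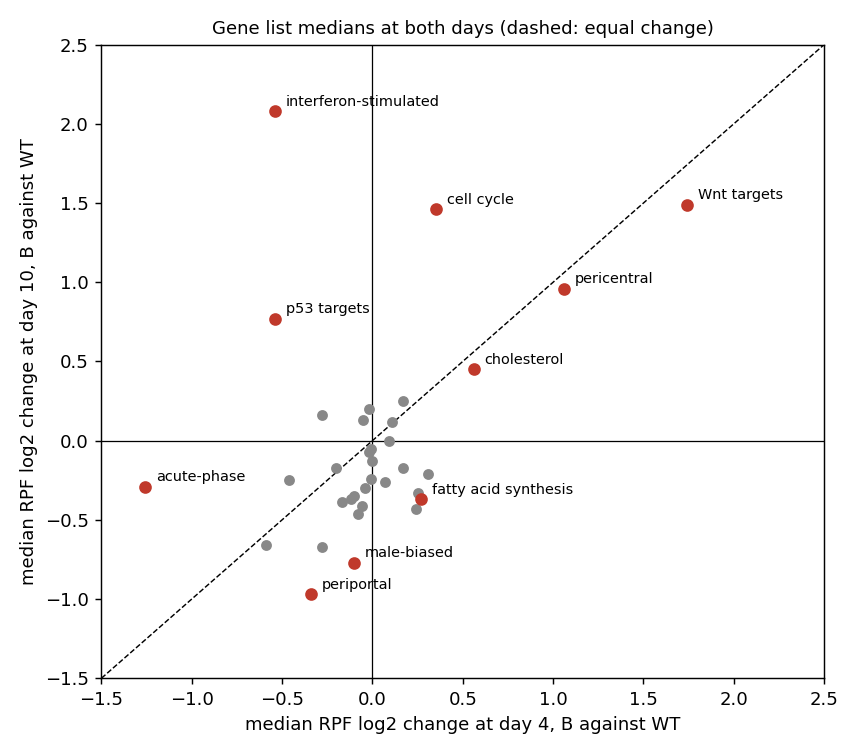
Median RPF log2 change, B against WT, of each gene list at day 4 (x) and at day 10 (y), with a dashed line of equal change and selected lists in red. Wnt target (1.74 and 1.49) and cholesterol genes (0.56 and 0.45) lie near the line, interferon-stimulated (-0.54 and 2.08) and p53 target genes (-0.54 and 0.77) lie on opposite sides of 0, and periportal genes lie lower at day 10 (-0.34 and -0.97).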

How the data were processed

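RPFs and cytoplasmic RNA were measured in liver lysates of the 6 mice. Per the labels and the study's methods, the authors trimmed reads (Cutadapt 1.18), removed duplicates by molecular identifier, aligned RPFs of 30 to 38 nt to 1 transcript per gene of GENCODE mouse coding sequences and counted them without the first 20 and last 10 codons, and deposited these as raw counts per transcript. RNA was aligned with Bowtie2 2.3.5.1 and the authors deposited RSEM 1.3.3 expected counts per isoform, which were summed per gene and rounded; the TPM that the authors deposited beside them entered no test. Read strand and sequencing dates are not given in the sources used here.

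Tests used edgeR 4.0.16 (quasi-likelihood, TMM, filterByExpr with minimum counts of 10 and 15 in total) in R 4.3.3 on the WT and B libraries of day 10 for each library type. TE was the interaction of genotype and library type, and the difference between days that of genotype and day. The mouse block pairs the RPF and RNA libraries of a mouse, whose deviations from the group mean correlated at 0.40 to 0.69 in every mouse. SEs derive from the quasi-likelihood statistic. DESeq2 1.42.0, other scalings, filters, thresholds and each mouse left out were tried. The cell cycle list is that of Seurat 5.3.0.

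Members and lists were chosen with earlier results of these data known, so lists are described by counts and medians only. Genes were named by rule: per list the 4 with the largest called RPF change in each direction with groups apart, the 12 largest overall in each direction, the top of the 30 most abundant, all TE calls, genes called in opposite directions, the largest differences between days and genes the study names for zonation or ribosome profiling. Uroc1, Isg15, Cxcl10, Cdkn1a, Mdm2, Kremen1, Dcn and Mpeg1 were chosen after their values were seen. Promoters are from RefSeq (GRCm38.p6), matched by symbol. A few genes are not reported here.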

Additional observations from a re-analysis of the deposited data

Results flagged for a closer look

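Each value below was flagged because the B effect (log2 B over WT) differed between day 10 and day 4 in edgeR's quasi-likelihood test of the interaction, at an adjusted p under 0.1. The value is the day 10 effect less the day 4 effect in RPFs unless RNA is named. Of the genes named in the report, 73 were flagged, 33 with a higher effect at day 10 and 40 with a lower one. The WT mice of the days are different animals and differed at acute-phase and p53 target genes, and their part in these values was not tested.

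Among the interferon-stimulated genes the differences were 3.0 for Usp18, 3.51 for Ifit1, 3.05 for Rsad2, 3.33 for Ifi44, 3.39 for Isg15, 2.95 for Cxcl10 and 1.35 for Irf7, and 1.41 for Eif2ak2, 1.37 for Psmb9 and 1.23 for Psmb8. Mpeg1 differed by 1.97. The acute-phase genes differed by 9.48 for Saa1, 10.14 for Saa2, 7.97 for Orm2 and 9.84 for Lcn2. The p53 targets and stress genes differed by 2.90 for Cdkn1a, 0.98 for Mdm2, 3.45 for Gdf15, 2.45 for Atf3, 2.21 for Ddit4 and -0.83 for Herpud1.

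Genes of periportal hepatocytes, histidine breakdown and the urea cycle differed by -5.16 for Hal, -4.38 for Cyp2f2, -3.90 for Sds, -3.62 for Gls2, -4.82 for Etnppl, -4.02 for Aspg, -3.18 for Amdhd1, -1.70 for Uroc1, -1.10 for Otc and -0.81 for Asl. Of genes of amino acid uptake and metabolism, Slc1a2 differed by 2.59, Rhbg by 2.35, Acmsd by 1.14, Mat1a by 0.96 and Csad by -2.74.

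P450 enzymes and their partners differed by -1.99 for Cyp2c29, -2.13 for Cyp2c40, -1.47 for Cyp3a11, -3.56 for Cyp8b1 and, in RNA, 0.63 for Por. Other enzymes differed by -0.94 for Gstp1, -0.88 for Gstp2, -1.26 for Hsd17b6 and, in RNA, -0.88 for Ugt2b38. Transporters and channels differed by -3.0 for Abcc3, -1.12 for Slc10a1 and -3.87 for Aqp8. For Aqp4, with no RPF count in B at day 10, the fitted difference was -8.50 and depends on the prior count.

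In lipid and glucose metabolism the differences were -1.22 for Scd1, -1.54 for Me1, -1.84 for Pklr and 0.77 for Mvk. Secreted and male-typical proteins differed by -0.94 for Alb, -0.84 for Serpina1e, -2.99 for Serpina12 and -1.29 for Mup3, the regulators Cebpa and Foxa1 by -0.84 and -1.81, and the iron genes Slc40a1 and Tfr2 by -1.38 and -0.47.

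Cell cycle genes differed by 1.69 for Ccnd1, 3.02 for Ckap2 and, in RNA, 1.97 for Cenpf. The growth factor axis differed by -1.47 for Igfbp2, -1.37 for Igfbp3 and -0.66 for Deptor. The remaining values were 6.09 for Ly6d, 1.0 for Eif6, 0.47 for Atp5if1, -0.51 for Cox6c, -0.63 for Dcn and, in RNA, 0.65 for Eif1.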

How the results depend on the processing

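Fitting all 4 genotypes of day 10 together gave 976 genes higher and 800 lower in RPFs. Library totals alone gave 3886 and 586 in RPFs, 2218 and 426 in RNA, and 1550 and 600 for the RPF difference between days. At an adjusted p under 0.05 the RPF lower calls numbered 921 and the RPF day differences 567 and 660. DESeq2 gave 10 higher and 16 lower for TE, and a minimum of 10 counts in every library gave 1 higher.

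Leaving out a mouse moved RPF calls between 838 and 1693 higher and 801 and 1622 lower, and RNA calls between 471 and 1115 higher and 488 and 1012 lower, with the fewest calls without WT mouse 3 or B mouse 2 and the most without B mouse 3. TE calls ran from 0 to 15 higher and 0 to 5 lower, RPF day differences from 620 to 1149 and 678 to 1204, and RNA lower day differences from 382 to 751. No named gene reversed its called direction in any alternative, and over the named genes and all alternatives 752 values lost a call, 340 gained one and 400 that passed in neither fit changed sign. Over the lists and all alternatives for RPF and RNA levels, 144 medians moved by more than the SD among the B mice and 936 did not.

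With the mouse as a block over its paired RPF and RNA libraries, TE calls were 140 higher and 136 lower, 52 to 271 and 39 to 369 as each mouse was left out, and 86 and 66 with DESeq2. WT and B mice with the same number share only that number (correlations of deviations 0.28, -0.10 and -0.12 in RPFs and 0.32, 0.01 and 0.00 in RNA). A replicate block on it gave 1405 higher and 1305 lower in RPFs, 1035 and 959 in RNA, and 868 and 916 for RPF and 552 and 641 for RNA day differences.

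With 3 mice a group the precision of each value is limited by the spread among them, and the RNA libraries held fewer counts than the RPF libraries.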
